A study of Homo sapiens with 4 samples.

Results

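The genes described here encode the subunits of the 5 enzyme complexes of oxidative phosphorylation. Members were the protein-coding rows of the count table whose mapped symbol was NDUFA, NDUFB, NDUFC, NDUFS or NDUFV and a digit, was SDHA to SDHD, or began with UQCR, COX4 to COX8, ATP5 or MT-. NDUFA4, which is known as a subunit of complex IV, and its relative NDUFA4L2 were counted with complex IV, and the other NDUF genes with complex I. This gave 102 genes of 67062 rows, of which 89 are nuclear and 13 lie on mitochondrial DNA. Of the 102, 93 passed the filter on low counts (80 nuclear and all 13 mitochondrial genes), among 15918 genes tested. Another 173 rows with a matching symbol are pseudogenes and were left out.

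The cells were OCI-AML3, an established human acute myeloid leukaemia line with the cytoplasmic NPM1 mutation (NPM1c+). They carried the retroviral vector pMSCV-PIG, either with the sequence of the lncRNA LONA inserted (PIG-LONA) or empty as the negative control (PIG-EMPTY). In both groups the vector also expresses puromycin resistance and GFP, and GFP+ cells were sorted. Transduction was done 2 times independently with either virus, which gave 4 poly(A) RNA libraries, 2 per group, and p-values measure the spread between transductions of a single cell line. No row was matched to LONA by name, so the group labels stand without a check from the transcript itself.

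Oxidative phosphorylation takes place in the inner mitochondrial membrane. Complexes I, III and IV pass electrons from NADH to oxygen and pump protons, complex II feeds in electrons from succinate without pumping, and complex V, the ATP synthase, uses the proton gradient to make ATP. Complexes I, III, IV and V are mosaics of subunits encoded by both genomes, while complex II is wholly nuclear. Acute myeloid leukaemia cells are often described as reliant on this pathway.

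Total counts ran from 29819572 to 38358442 per library. All 8 markers of the myeloid line were present (2.10 to 449 CPM, edgeR's unit of counts relative to library size, after TMM scaling), with MPO the lowest. Of 11 markers of T, B, erythroid, epithelial and fibroblast cells, 0 reached 1 CPM and 6 had 0 counts in every library; their summed level was 1.72 to 1.78 CPM in PIG-EMPTY and 1.59 to 1.70 CPM in PIG-LONA. Across all genes, 1025 passed the test, 467 higher and 558 lower in PIG-LONA.

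No subunit gene passed the test between PIG-LONA and PIG-EMPTY. With edgeR's quasi-likelihood test and Benjamini-Hochberg adjustment over all tested genes, 0 of 93 members were higher and 0 lower at adjusted p under 0.05, against 6.44% of all tested genes in either direction (2.93% higher and 3.51% lower). Without adjustment, 4 of 93 members had p under 0.05 (COX7A2, ATP5F1E, MT-ATP8 and NDUFA6), compared with 2971 of all 15918 tested genes. The smallest edgeR adjusted p of a member was 0.0789, for COX7A2. The DESeq2 Wald test and limma-voom also called 0 members. The groups did not overlap for 20 members (8 higher and 12 lower in PIG-LONA), compared with 48.0% of all tested genes. The median log2 fold change was -0.011 for the 80 nuclear members, 0.0017 for the 13 mitochondrial members and 0.0011 for all tested genes. The median standard error of a member was 0.05 on this scale.

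**Figure D1:**
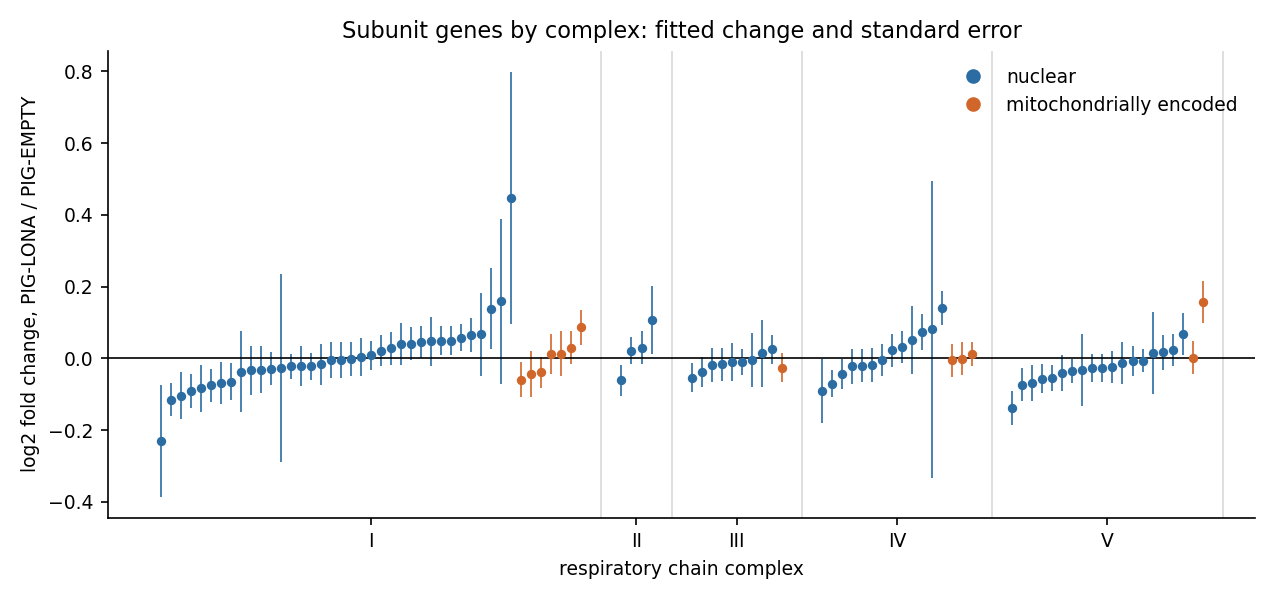
Fitted log2 fold change (PIG-LONA over PIG-EMPTY, 2 libraries per group) of the 93 tested subunit genes, sorted within each complex and genome; points are genes and bars are 1 standard error. Most points lie within 0.1 of 0, and the long bars belong to genes with few counts, such as NDUFA7 and NDUFA4L2.

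The mitochondrial DNA codes for 13 proteins, and places where its genes touch or overlap bear on how their reads were counted. Of these places, 3 are printed from the GENCODE 29 transcripts (GRCh38, 5′ to 3′). The base that MT-ATP6 shares with MT-CO3 is not shown. The first is the end of MT-ATP8, chrM:8517-8572, plus strand, with capitals for the 46 bases that also belong to MT-ATP6.
end of MT-ATP8: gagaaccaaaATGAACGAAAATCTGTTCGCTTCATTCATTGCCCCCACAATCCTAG
Next is the end of MT-ND4L, chrM:10750-10766, plus strand, with capitals for the 7 bases that also belong to MT-ND4.
end of MT-ND4L: acctactccaATGCTAA
Last come the ends of MT-ND5 (chrM:14119-14148, plus strand) and MT-ND6 (chrM:14149-14178, minus strand), which meet tail to tail; capitals mark the last 3 bases of each.
end of MT-ND5: ctcatcctaaccctactcctaatcacaTAA
end of MT-ND6: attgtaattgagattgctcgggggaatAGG
MT-ND6 is the only member on the minus strand of mitochondrial DNA; the other 12 are on the plus strand. The strand setting of the counting is not given in the sources used here, so reads of MT-ND6 and of RNA copied from the opposite strand cannot be told apart.

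The mitochondrial mRNAs took 5.58% and 5.41% of all counts in PIG-EMPTY replicates 1 and 2, and their share was 5.81% in replicate 1 and 5.18% in replicate 2 of PIG-LONA. The PIG-LONA libraries were the highest and the lowest of the 4, and the group means were the same to 3 digits, 5.50% ± 0.12 in PIG-EMPTY and 5.50% ± 0.45 in PIG-LONA (SD, n = 2 each; exact permutation test, two-sided, p = 1). With 2 libraries against 2, the smallest p this test can give is 0.333. Counting error was small, since the 95% Wilson interval of each share was at most 0.0167 percentage points wide; it covers counting error only. The nuclear members took 0.852% and 0.855% in PIG-EMPTY, against 0.861% and 0.823% in PIG-LONA. The ratio of summed mitochondrial to summed nuclear counts, which compares the genomes without a library total, was 6.56 and 6.33 in PIG-EMPTY, against 6.75 and 6.30 in PIG-LONA. The groups overlapped, with a log2 difference of 0.02 (exact permutation test, two-sided, p = 1, n = 2 each).

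Complex I is the NADH dehydrogenase, and 7 of its core subunits are mitochondrial. MT-ND4, a proton-pumping subunit, stood at 9448 and 9012 CPM in PIG-EMPTY and 10083 and 8768 CPM in PIG-LONA. MT-ND1, which forms part of the quinone site, stood at 4702 and 4440 CPM in PIG-EMPTY and 5050 and 4171 CPM in PIG-LONA. For both genes the PIG-LONA values enclosed the PIG-EMPTY values, and the fitted log2 changes were 0.03 ± 0.05 and 0.01 ± 0.05 (SE). The pumping subunit MT-ND2 (3626 and 3506 CPM in PIG-EMPTY, 3697 and 3246 CPM in PIG-LONA) had the same layout. MT-ND5, also a pump, stood at 3412 and 2969 CPM in PIG-EMPTY and 3532 and 2910 CPM in PIG-LONA. It had the largest gap of the mitochondrial mRNAs between the PIG-EMPTY libraries, -0.20 as log2 of replicate 2 over replicate 1. The small membrane subunits MT-ND3 and MT-ND4L had fitted log2 changes of -0.06 ± 0.05 and 0.09 ± 0.05 (SE).

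MT-ND6, the membrane subunit read from the other strand, ran the opposite way between the PIG-LONA libraries. It stood at 161 and 164 CPM in PIG-EMPTY replicates 1 and 2, and at 140.1 CPM in PIG-LONA replicate 1 and 175 CPM in replicate 2. So PIG-LONA replicate 1 was the lowest library for MT-ND6 and the highest for each of the other 12 mitochondrial mRNAs. As a share of the mitochondrial mRNA counts, MT-ND6 made up 0.288% and 0.305% in PIG-EMPTY, against 0.239% and 0.338% in PIG-LONA, with 95% Wilson intervals at most 0.0163 percentage points wide. Its fitted log2 change between groups was -0.04 ± 0.06 (SE, adjusted p 0.791).

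MT-CYB, cytochrome b of complex III, stood at 2816 and 2736 CPM in PIG-EMPTY and 2887 and 2568 CPM in PIG-LONA, a log2 change of -0.03 ± 0.04 (SE). The catalytic core of complex IV, cytochrome c oxidase, had the highest levels per kb of exon of all members. MT-CO3 averaged 9490 and MT-CO1 9391 CPM per kb over the 4 libraries. MT-CO1, which holds the oxygen-reducing centre, was the steadiest of the 3, at 14436 and 14413 CPM in PIG-EMPTY and 14999 and 14075 CPM in PIG-LONA. The log2 changes of MT-CO1, MT-CO2 and MT-CO3 were 0.01, -0.0056 and -0.0004, each smaller than its standard error.

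MT-ATP6 and the small subunit MT-ATP8 belong to the membrane part of complex V. MT-ATP8 stood at 109 and 104 CPM in PIG-EMPTY and 130.0 and 108 CPM in PIG-LONA, with the PIG-LONA replicate 2 value between the PIG-EMPTY values. Its log2 change was 0.16 ± 0.06 (SE), the largest of the mitochondrial mRNAs, with an edgeR adjusted p of 0.134. MT-ATP6, whose start overlaps MT-ATP8 in the sequence above, had a log2 change of 0.0017 ± 0.05. The overlap takes up 22.2% of MT-ATP8 but 6.9% of MT-ATP6 (counting the base that MT-ATP6 shares with MT-CO3), and how reads over it were assigned is not given.

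**Figure D2:**
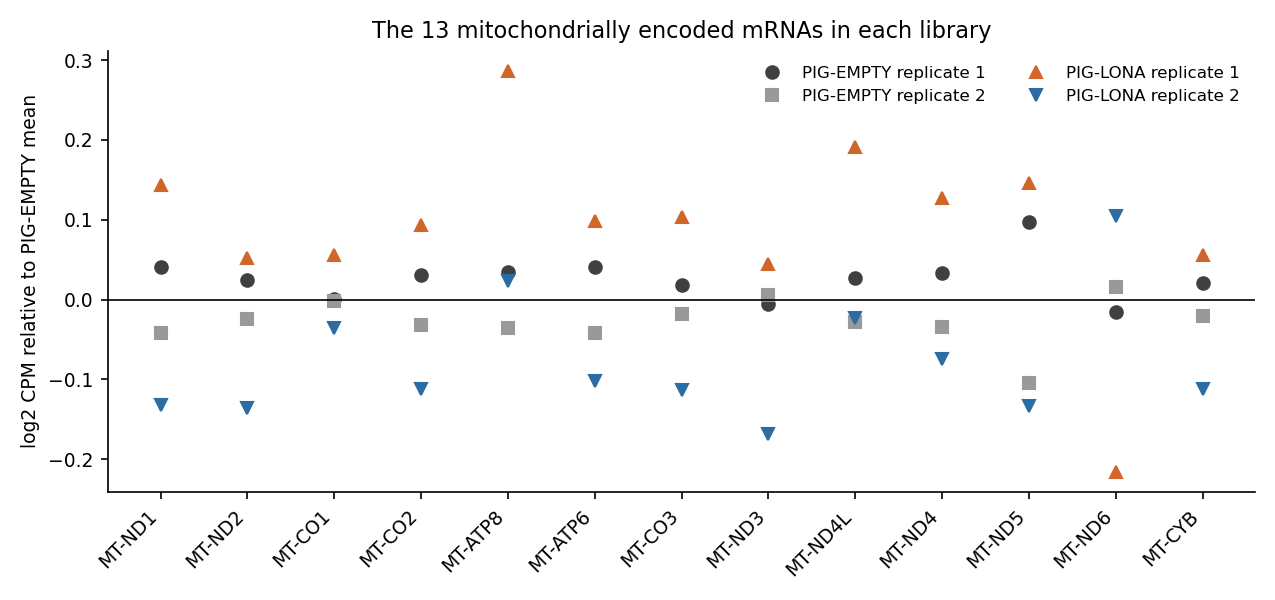
Level of the 13 mitochondrial mRNAs in each of the 4 libraries, as log2 of CPM over the PIG-EMPTY mean, in their order on mitochondrial DNA. PIG-LONA replicate 1 is the highest library for 12 of 13 genes and the lowest for MT-ND6.

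The spread between the PIG-LONA libraries was wider than the difference between the groups. The log2 ratio of PIG-LONA replicate 2 over replicate 1 was below 0 for 12 of 13 mitochondrial members (median -0.20) and for 72 of 80 nuclear members (median -0.10). Over all tested genes it was below 0 for 49.6%, with a median of 0.0011. MT-ND6, at 0.32, was the exception among the mitochondrial mRNAs, and without it the median of the 12 plus-strand mRNAs was -0.21. In PIG-EMPTY the same ratio had a median of -0.06 for the mitochondrial and 0.0061 for the nuclear members. The PIG-LONA gap was larger than the fitted change between groups, in absolute log2, for 79 of 93 members, and for 8269 of all 15918 tested genes. The largest PIG-LONA gaps were in NDUFA4L2 (-1.18), NDUFV2 (0.75) and the stalk subunit ATP5PO (-0.49). In PIG-LONA replicates 1 and 2, NDUFA4L2 had 23 and 13 counts, NDUFV2 30 and 65, and ATP5PO 466 and 427. In PIG-EMPTY the largest were in NDUFA7 (0.75), NDUFC2 (-0.23) and MT-ND5 (-0.20).

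In PIG-LONA the gap was past 1.96 counting standard errors for 13 of 13 mitochondrial and 49 of 80 nuclear members. In PIG-EMPTY this held for 10 of 13 mitochondrial and 6 of 80 nuclear members. The share of all tested genes was 21.7% in PIG-LONA and 11.6% in PIG-EMPTY. Counting error does not cover the spread between transductions, and it is smaller in abundant genes, with a median in PIG-LONA of 0.0060 for the mitochondrial and 0.04 for the nuclear members. By complex, the median PIG-LONA gap of the nuclear members was -0.08 for complex I, -0.07 for complex II, -0.12 for complex III, -0.13 for complex IV and -0.11 for complex V. All 13 tested nuclear members of complex IV, all 9 of complex III and all 4 of complex II were below 0, as were 29 of 36 in complex I and 17 of 18 in complex V. The mitochondrial rRNAs, which are no members, went the same way: MT-RNR2 stood at 12235 CPM in PIG-LONA replicate 1 and 10803 CPM in replicate 2, and MT-RNR1 at 684 and 587 CPM.

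The gap also moved with gene length. Among nuclear protein-coding genes, the median PIG-LONA gap was -0.05 in the quartile with the shortest exon total and 0.05 in the one with the longest. In the shortest quartile, 50 nuclear members had a median gap of -0.12; in the next ones it was -0.09 (15 members), -0.09 (7 members) and -0.02 (8 members). In each of the 4 quartiles the members' median was below that of all genes of the quartile (-0.05, -0.01, 0.02 and 0.05). The part of length in the members' gap was not tested.

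**Figure D3:**
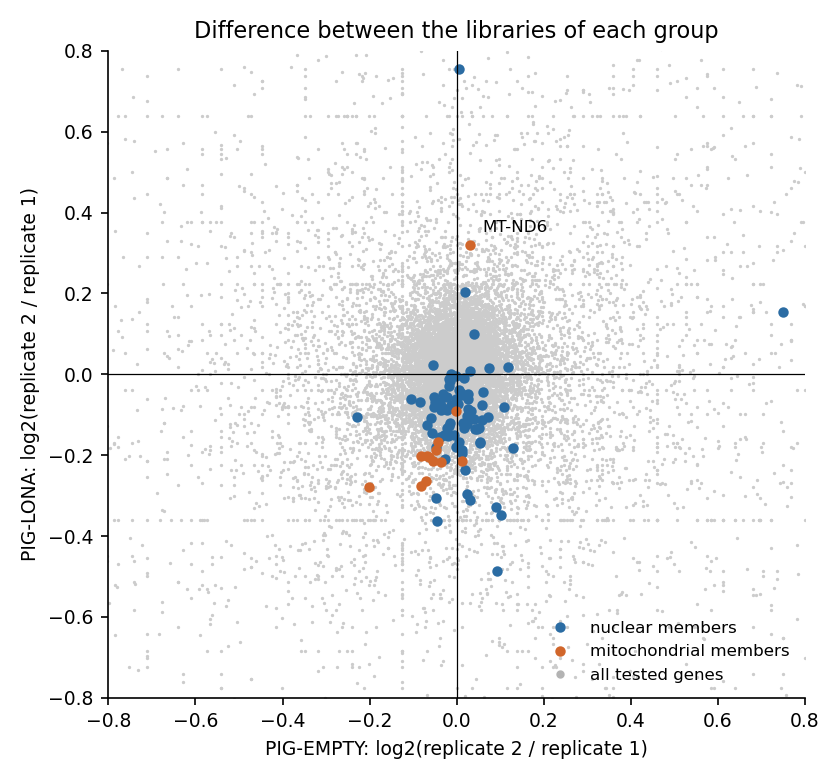
Log2 ratio of replicate 2 over replicate 1 in PIG-EMPTY (x axis) and PIG-LONA (y axis) for each tested gene with a symbol; genes beyond 0.8 on either axis, NDUFA4L2 among them, lie outside the plot. Members lie mostly below 0 on the y axis, with a median of -0.20 for mitochondrial and -0.10 for nuclear members, and MT-ND6 lies above.

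Each PIG-LONA library taken alone against the PIG-EMPTY pair gave calls, and in the mitochondrial mRNAs these pointed in opposite directions. In such a fit the lone library is assumed to vary like the PIG-EMPTY pair. Without PIG-LONA replicate 1, 19 members were lower (10 nuclear and 9 mitochondrial; 6.63% of all tested genes were lower) and 1, MT-ND6, was higher (7.31% of all tested genes were higher). Without PIG-LONA replicate 2, 13 members were higher (11 mitochondrial, COX7B and COX7A2; 3.79% of all tested genes were higher) and 1, MT-ND6, was lower (4.02% of all tested genes were lower). Called in both were 9 members, all of them mitochondrial, and each of the 9 had opposite signs. MT-ND1, for example, was at -0.13 without replicate 1 and 0.15 without replicate 2, and MT-ND6 was at 0.10 and -0.21. The median over the nuclear members was -0.060 without replicate 1 and 0.047 without replicate 2.

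**Figure D4:**
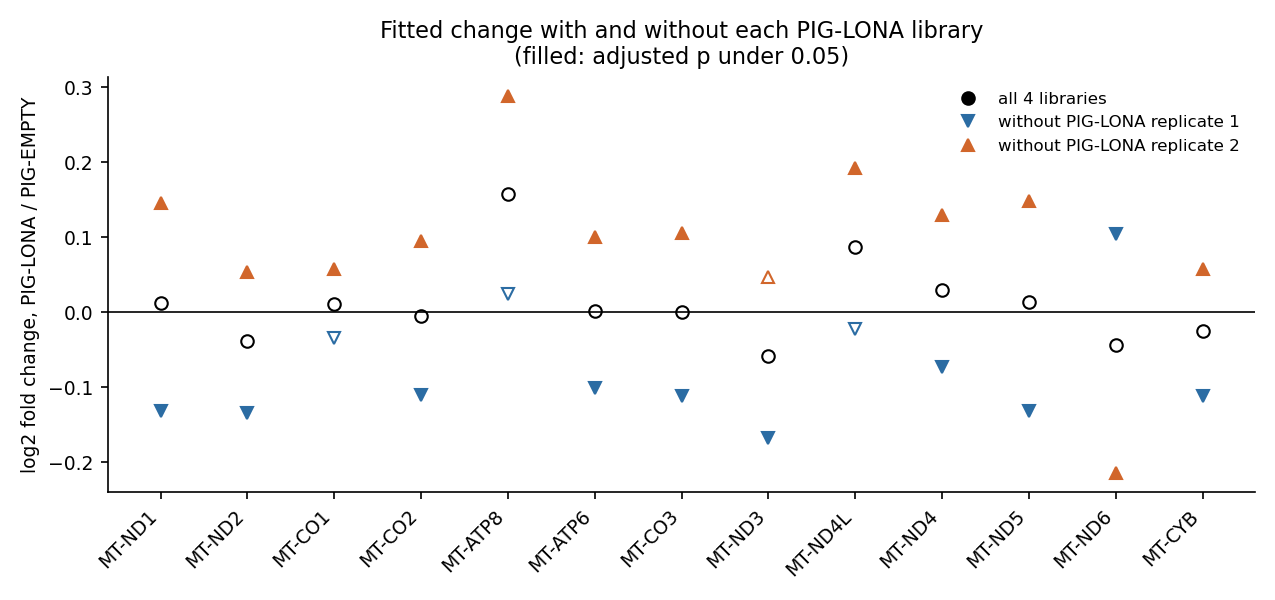
Fitted log2 fold change of the 13 mitochondrial mRNAs with all 4 libraries and without either PIG-LONA library; filled symbols have an edgeR adjusted p under 0.05. The values without replicate 1 and without replicate 2 lie on opposite sides of 0 for 12 genes, all but MT-ATP8.

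In nuclear complex I, 36 of 37 members were tested, 16 with a log2 change above 0 and 20 below, with a median of -0.0036. NDUFA6, an accessory subunit at the matrix arm, stood at 72.7 and 70.8 CPM in PIG-EMPTY and 67.9 and 64.7 CPM in PIG-LONA. The groups did not overlap, and the log2 change was -0.12 ± 0.05 (SE, edgeR adjusted p 0.167). NDUFB8, an accessory subunit of the membrane arm, had the lowest fold change of any member, -0.23 ± 0.16 (SE, adjusted p 0.469). Its level was low, with 112 and 123 counts in PIG-EMPTY and 98 and 122 counts in PIG-LONA. NDUFA7, another accessory subunit, had the highest fold change, 0.45 ± 0.35 (SE), on 12, 22, 21 and 30 counts in the same order. Among the catalytic core subunits, NDUFV1, which binds the NADH-oxidising flavin, stood at 186 and 183 CPM in PIG-EMPTY and 191 and 180.1 CPM in PIG-LONA. NDUFS1, the largest iron-sulphur subunit, stood at 162 and 162 CPM in PIG-EMPTY and 169 and 168 CPM in PIG-LONA, a log2 change of 0.06 ± 0.04 (SE).

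Complex II, succinate dehydrogenase, has 4 subunits. SDHB, the iron-sulphur subunit, stood at 102 and 98.2 CPM in PIG-EMPTY and 98.1 and 93.6 CPM in PIG-LONA. The groups came close without overlapping, and the log2 change was -0.06 ± 0.04 (SE). The membrane anchors SDHC and SDHD had log2 changes of 0.02 ± 0.04 and 0.03 ± 0.05. SDHA, the flavoprotein, stood at 13.5 and 13.02 CPM in PIG-EMPTY and 15.9 and 12.9 CPM in PIG-LONA, a log2 change of 0.11 ± 0.09. SDHA has near-identical pseudogenes with counts of their own (SDHAP1 330, 310, 327 and 519; SDHAP3 409, 396, 459 and 575, PIG-EMPTY first), so its count is uncertain.

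Complex III, the cytochrome bc1 complex, had 9 nuclear members tested, with a median of -0.01. The values ran from -0.05 ± 0.04 for UQCRB, a quinone-binding accessory subunit, to 0.02 ± 0.04 for the core subunit UQCRC1. UQCRFS1, the Rieske iron-sulphur protein, stood at 108 and 106 CPM in PIG-EMPTY and 106 and 102 CPM in PIG-LONA. The hinge protein UQCRH had the highest level per kb of the complex (189 CPM per kb). Its near-identical copy UQCRHL had 412, 457, 469 and 491 counts, and reads of the pair may be split.

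Complex IV had 13 of 19 nuclear members tested, with a median of -0.0034. COX7A2, a small subunit of the broadly expressed type, stood at 103 and 107 CPM in PIG-EMPTY and 121 and 110.5 CPM in PIG-LONA. It was higher in both PIG-LONA libraries, and the log2 change was 0.14 ± 0.05 (SE, edgeR adjusted p 0.0789). COX7A2 is the only tested nuclear member on chromosome 6 (chr6:75237675-75250323 on GRCh38). The 799 tested genes of that chromosome had a median log2 change of 0.17, and the part of this in the COX7A2 value was not tested. COX4I1, a regulatory subunit, stood at 264 and 269.5 CPM in PIG-EMPTY and 262 and 246 CPM in PIG-LONA, a log2 change of -0.07 ± 0.04. COX8A had the lowest change of the complex, -0.09 ± 0.09.

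The isoforms of complex IV that are known from muscle, lung or testis were near the detection limit. COX4I2, COX6A2 and COX7A1 had 0 counts in all 4 libraries. At 95% confidence, 0 counts leave an expected count of up to about 3 per library, or 0.101 CPM in the shallowest. COX6B2 had 1, 1, 3 and 0 counts, COX7B2 had 0, 1, 0 and 0, and COX8C had 3, 6, 3 and 6 (PIG-EMPTY first). Their partners COX4I1, COX6A1, COX7A2, COX6B1, COX7B and COX8A were all tested. NDUFA4L2, the relative of NDUFA4 known from hypoxic cells, had 0.470 and 0.523 CPM in PIG-EMPTY and 0.768 and 0.338 CPM in PIG-LONA. The other members under the filter were the readthrough genes NDUFC2-KCTD14 (0 counts throughout) and ATP5MF-PTCD1 (5, 3, 1 and 6), and ATP5MGL (2, 2, 3 and 2).

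Complex V had 18 of 20 nuclear members tested, 14 with a log2 change below 0 and 4 above, with a median of -0.03. ATP5F1E, the epsilon subunit of the central stalk, stood at 96.4 and 99.3 CPM in PIG-EMPTY and 93.3 and 84.9 CPM in PIG-LONA. The groups did not overlap, and the log2 change was -0.14 ± 0.05 (SE, edgeR adjusted p 0.0941). ATP5F1B, the catalytic beta subunit, had the highest level per kb of all nuclear members (356 CPM per kb) and a log2 change of -0.0061 ± 0.03. ATP5IF1, the inhibitor of ATP hydrolysis, stood at 68.1 and 69.4 CPM in PIG-EMPTY and 66.5 and 64.3 CPM in PIG-LONA, a log2 change of -0.07 ± 0.05. The highest change of the complex was that of ATP5MF, a membrane subunit, at 0.07 ± 0.06. The genes for the c-ring subunit, ATP5MC1, ATP5MC2 and ATP5MC3, had log2 changes of 0.02, -0.06 and -0.03 with levels of 31.4, 52.7 and 31.9 CPM per kb.

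The levels of the subunit genes were high and unequal. Per kb of exon, the median tested member stood at the 92.0 percentile of all tested genes. The nuclear members with the highest level per kb were ATP5F1B, NDUFS5 (225 CPM per kb), a complex I accessory subunit, and UQCRH. This order depends on the exon length used, which joins all annotated exons of a gene. ATP5F1A, with 10908 exon bases, had a PIG-EMPTY mean of 679 CPM, and NDUFS5, with 548 bases, one of 126 CPM. At the other end, 11 nuclear members stayed under 5 CPM per kb, a limit chosen after the values were seen: 7 of complex I (NDUFB8, NDUFA11, NDUFA9, NDUFC2, NDUFV2, NDUFA13 and NDUFA7), SDHA, ATP5MG, ATP5PO and NDUFA4L2. NDUFV2 stood at 0.509 CPM per kb and NDUFV1, with which it forms the NADH-binding module, at 36.6 CPM per kb. Of the 11, 8 (72.7%) share exon bases on the same strand with another protein-coding gene of GENCODE 29, compared with 8 of the other 69 (11.6%). The overlaps include 33.8% of the exon bases of NDUFB8, 32.3% of NDUFA7 and 21.0% of NDUFA13. For NDUFV2 the overlapping gene (28.4%) is a processed transcript. The annotation used by the authors and their treatment of shared reads are not given, so the part of overlap in these low levels was not tested. The standard errors of the 11 ran from 0.09 to 0.41 and those of the other 69 from 0.03 to 0.09.

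**Figure D5:**
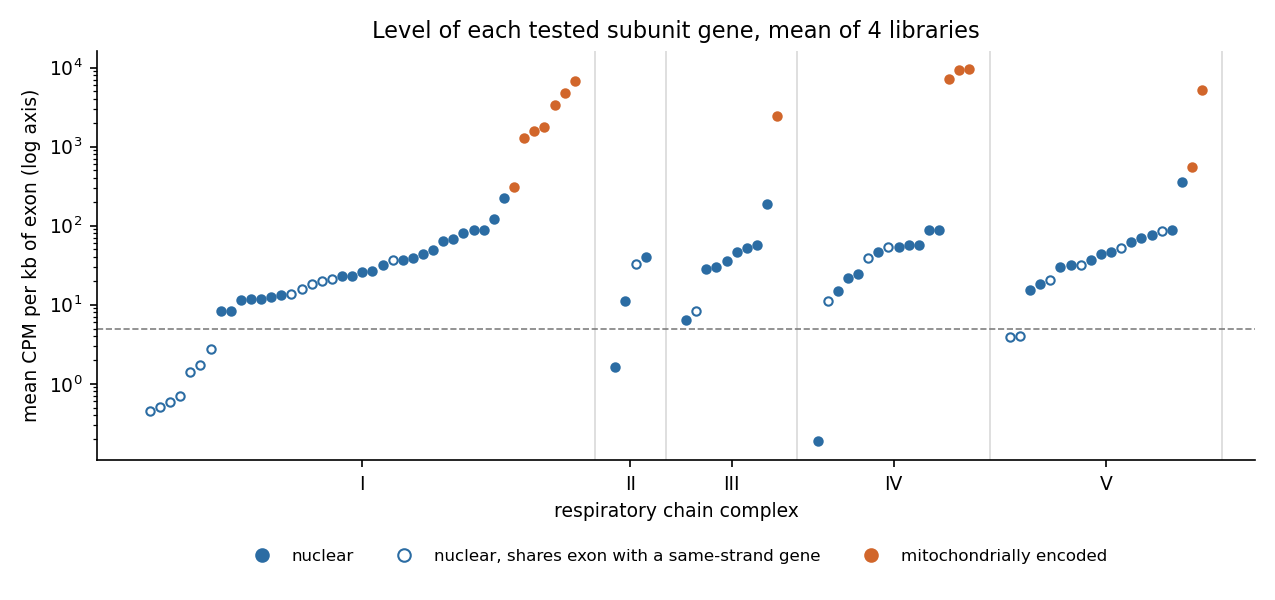
Mean CPM per kb of exon over the 4 libraries (log axis) for the 93 tested members by complex; open symbols are nuclear members that share exon bases with another gene on the same strand, and the dashed line is 5 CPM per kb. The mitochondrial mRNAs lie at the top, up to 9490 for MT-CO3, and most of the members under the line are open symbols.

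Nuclear copies of mitochondrial DNA can take reads from the mitochondrial mRNAs. The table holds 404 pseudogenes of this kind, 51 of them with a count. Together they held 0.763% to 0.810% of the counts of the 13 mRNAs. The largest was MTATP6P1, with raw counts of 8743, 9210, 10095 and 10321 (PIG-EMPTY first). MT-ATP6 itself had 109058, 112313, 114101 and 127533 counts in the same order. Library totals in that order were 29819572, 32350832, 30181550 and 38358442, so these raw counts do not compare the groups.

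Of 88 other symbols listed for the pathway from textbook knowledge, 84 were tested. Of these, 1 was higher and 1 lower, against 2.93% higher and 3.51% lower of all tested genes. The other 82 did not pass the test. Both calls were assembly factors of complex I, of which 15 were listed. NDUFAF4 rose from 30.4 and 30.8 CPM in PIG-EMPTY to 38.5 and 34.7 CPM in PIG-LONA, a log2 change of 0.25 ± 0.06 (SE, edgeR adjusted p 0.0130). It lies on chromosome 6, whose genes had the higher median given above. The DESeq2 Wald test gave it an adjusted p of 0.0816. NDUFAF8 fell from 43.0 and 44.4 CPM in PIG-EMPTY to 37.8 and 35.4 CPM in PIG-LONA, a log2 change of -0.26 ± 0.05 (SE, edgeR adjusted p 0.00514). Leaving out PIG-EMPTY replicate 2 ended both calls (adjusted p 0.0585 and 0.0947), and leaving out PIG-EMPTY replicate 1 ended that of NDUFAF4 (adjusted p 0.0738).

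Of the genes that copy and handle mitochondrial DNA and RNA, 0 of 21 tested passed edgeR's test, and of the regulators of nuclear subunit genes 0 of 7. Without adjustment, p was under 0.05 for 2 of the 21 and 0 of the 7, compared with 2971 of all 15918 tested genes. The DESeq2 Wald test and limma-voom called 0 in both lists. At 6.44% of all tested genes called, counts of 0 in lists this short lie near the background. TFAM, which packages mitochondrial DNA and starts its transcription, stood at 106 and 100.0 CPM in PIG-EMPTY and 108 and 110.2 CPM in PIG-LONA, a log2 change of 0.09 ± 0.04 (SE, adjusted p 0.299). POLRMT, the mitochondrial RNA polymerase, had a log2 change of 0.05 ± 0.04, and LRPPRC, which stabilises mitochondrial mRNAs, had 0.06 ± 0.03. Among the regulators, NRF1, a transcription factor of nuclear subunit genes, had a log2 change of 0.05 ± 0.06 and the coactivator PPARGC1B -0.04 ± 0.05. The coactivator PPARGC1A had 1, 0, 0 and 0 counts. The electron carrier CYCS and its complex III partner CYC1 both had log2 changes of 0.05 ± 0.04, and NDUFAB1, the acyl carrier protein in complex I, had 0.01 ± 0.04.

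The promoters of the nuclear members are known to share binding motifs, and those of 70 of 89 were found in the RefSeq table (GRCh38.p14, 250 bases before to 50 after the start). ATP5PF, a stalk subunit of complex V, and SDHB are shown because their promoters are the ones among these that hold the NRF1, ETS and YY1 motifs together. Each is printed 5′ to 3′ up to 30 bases past the start, ATP5PF at chr21:25735025-25735304 and SDHB at chr1:17054003-17054282, both on the minus strand. Capitals mark the matches: GCATGCGC for NRF1, CCGGAAG for ETS factors such as GABPA, AAGATGGC for YY1 and GGGCGG for SP1, on either strand.
ATP5PF promoter: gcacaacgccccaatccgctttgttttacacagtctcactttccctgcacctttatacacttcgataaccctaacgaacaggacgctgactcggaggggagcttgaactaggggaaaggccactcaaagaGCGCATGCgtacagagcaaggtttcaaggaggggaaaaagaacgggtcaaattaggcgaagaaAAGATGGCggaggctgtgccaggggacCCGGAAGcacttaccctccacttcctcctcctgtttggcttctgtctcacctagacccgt
SDHB promoter: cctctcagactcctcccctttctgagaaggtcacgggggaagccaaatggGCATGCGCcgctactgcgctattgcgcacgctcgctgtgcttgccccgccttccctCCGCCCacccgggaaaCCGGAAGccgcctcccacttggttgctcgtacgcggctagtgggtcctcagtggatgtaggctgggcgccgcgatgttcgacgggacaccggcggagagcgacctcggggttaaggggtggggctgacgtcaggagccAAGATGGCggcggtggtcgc

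The NRF1 letters were in 13 of the 70 promoters (18.6%), compared with 3.27% of all 27305 promoters in the table and 5.71% of those of 9911 tested protein-coding genes. The YY1 letters were in 11 (15.7%), compared with 3.03% and 5.57%. ETS letters were in 20 (28.6%), compared with 10.7% and 19.8%, and SP1 letters in 43 (61.4%), compared with 44.6% and 70.5%. The shares were described and not tested, and a match is not a binding site. The 13 members with NRF1 letters had a median log2 change of 0.02 and the 52 other tested ones with a promoter -0.02. For YY1 the medians were 0.02 (11 members) and -0.01 (54 members), and for ETS -0.0084 (20 members) and -0.01 (45 members). For SP1 the order was the other way, with -0.03 (41 members) and 0.0014 (24 members). These medians are a description, with no test.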

How the data were processed

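Poly(A) RNA libraries were made with a directional kit, per the labels. The authors deposited a table of raw counts, a column for each of the 4 libraries and a row for each Ensembl gene. FastQC 0.11.4, STAR 2.5, HTSeq and hg38 are listed in the submitters' processing notes. Neither the annotation release nor the strandedness of the counting is given in the sources used here.

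Symbols came from a table of gene names (60402 of 67062 rows matched; the others held 0.0723% of the counts), and gene types, positions and exon lengths from GENCODE 29 on GRCh38. Members, lists and the rule for named genes (extremes of each complex, all mitochondrial mRNAs, isoform pairs, members under the filter, pathway genes past the test) were chosen with earlier results of these data known. NDUFS1 and NDUFV1 were named after their values were seen. In the pathway list, FASTKD4 was not matched, but it is another name of TBRG4, which is also listed and was tested. AOX1, also listed, encodes an aldehyde oxidase in humans and was under the filter.

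The groups were compared with edgeR 4.0.16 in R 4.3.3 (filterByExpr with minimum count 10 and total 15, TMM, glmQLFit and glmQLFTest on the group). Tests were two-sided, and Benjamini-Hochberg adjustment ran over 15918 genes. SE is the size of the log2 fold change over the square root of F. Single values per library were compared by exact permutation. The script was tested on simulated data with 50 planted changes of each size. It called 52% of 1.2-fold changes, 82% of 1.5-fold changes and 86% of both 2-fold and 4-fold changes. Of all its calls, 6.13% were false. Alternatives were other scalings, DESeq2 1.42.0, limma-voom (limma 3.58.1), other filters, a replicate block, leaving out each library, chromosome 6 or mitochondrial genes, and adjusted p under 0.01. The biological coefficient of variation was 2.95%.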

Additional observations from a re-analysis of the deposited data

How the results depend on the processing

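The count of 0 called members held under every alternative run except the replicate block and the fits without a PIG-LONA library. With the replicate block, 1 member was called higher, MT-ATP8 (0.15 ± 0.05, edgeR adjusted p 0.0497). Across all genes, that fit called 1101 in either direction. The replicate numbers are not said to pair the libraries, and the correlation of same-numbered deviations was 0.029. With each library left out in turn, 0 to 13 members were higher and 0 to 19 lower, the median of nuclear members ran from -0.060 to 0.047, and that of mitochondrial members from -0.11 to 0.10. In those fits 9 mitochondrial mRNAs had a called value on the other side of 0 from that with all libraries: MT-ND1 (-0.13 to 0.15), MT-ND2 (-0.13 to 0.053), MT-ND4 (-0.073 to 0.13), MT-ND5 (-0.13 to 0.15), MT-ND6 (-0.21 to 0.10), MT-CO2 (-0.11 to 0.095), MT-CO3 (-0.11 to 0.11), MT-CYB (-0.11 to 0.058) and MT-ATP6 (-0.10 to 0.10), the lowest without PIG-LONA replicate 1 and the highest without replicate 2, except for MT-ND6, where it was the reverse. Of all genes, 1025 were called, against 473 by the DESeq2 Wald test, 334 with no filter on low counts, 660 without chromosome 6 genes, 528 at adjusted p under 0.01 and 466 to 2331 with a library left out; the cause was not tested. Of 763 alternative values of named genes, 56 changed sign with no call on either side. With no filter on low counts, NDUFAF4 (adjusted p 0.103) and NDUFAF8 (adjusted p 0.0678) did not pass the test. Standard errors ran from 0.09 to 0.41 in the 11 nuclear members with the lowest levels per kb and from 0.03 to 0.09 in the other 69.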
